A study of Homo sapiens with 6 samples.

Results

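The genes described here encode 38 proteins of epithelial and planar cell polarity, taken by symbol from a deposited table of 26228 gene rows. All 38 had a value in every library. By role, 8 belong to the Crumbs group, 4 to the KIBRA and angiomotin group, 7 to the Scribble group, 15 to the planar polarity group and 4 to the ezrin, radixin and moesin (ERM) group, in which merlin was counted. RNA came from AsPC-1, an established human pancreatic cancer cell line, so all values describe 1 line. One group of 3 libraries came from cells given vehicle and the other group of 3 from cells given DON. The name stands for 6-diazo-5-oxo-L-norleucine, which mimics glutamine and inhibits enzymes that use it. Both groups were kept for 24 h in medium without serum, so serum withdrawal is common to vehicle and DON. The labels give no DON dose and do not say whether replicates were separate cultures, so each p-value measures only how these libraries spread, and that spread may be technical.

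Epithelial cells keep an apical and a basolateral surface apart with protein complexes that exclude each other. The Crumbs complex marks the apical side, the Scribble, DLG and LLGL scaffolds mark the basolateral side, and ERM proteins tie the apical membrane to actin. A separate system of Frizzled, VANGL and CELSR proteins orients cells within the plane of the sheet. The series title links polarity proteins to macropinocytosis, the bulk uptake of fluid, under metabolic stress. The comparison of DON with vehicle asks how polarity transcripts respond to that stress.

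Levels are FPKM, fragment counts divided by transcript length and library total, which allow genes of different length to be set side by side. Changes are log2 fold changes of FPKM + 1, DON minus vehicle, from limma. On this scale changes are understated, most at about 1 FPKM or less and less so at higher levels. CELSR1, at 3.93 to 11.4 FPKM, changed by -1.09 on it and by -1.24 with 0.1 added in place of 1. Folds are ratios of mean FPKM with nothing added. A gene was called when its Benjamini-Hochberg adjusted p over all 11471 tested genes was under 0.05, and 38.9% of tested genes were called. FPKM sums lay between 525200 and 556950 per library. In DON ASNS, the asparagine synthetase, rose 8.51-fold and HSPA5, a chaperone of the endoplasmic reticulum, rose 6.35-fold. Of 10 epithelial markers, KRT19 and EPCAM lay between 928 and 2377 FPKM and CDH1 between 29.2 and 36.8 FPKM. KRT8 and KRT18 held a failure mark in vehicle 3, DON 2 and DON 3, and GRHL2 stayed at or below 0.0538 FPKM. Without KRT8 and KRT18, which were left out, the other 8 epithelial markers summed to 4018 to 4786 FPKM in vehicle and 3198 to 4251 FPKM in DON. Of 7 tested 1 was called higher and 3 lower, against 18.3% higher and 20.6% lower among all tested genes. ESRP1, an epithelial splicing factor, rose from 8.17 to 9.33 FPKM in vehicle to 17.5 to 18.5 FPKM in DON (limma log2 fold change 0.99, adjusted p = 0.000299). MUC1 (-1.08, adjusted p = 0.00452), CEACAM6 (-0.92, adjusted p = 0.0403) and CLDN4 (-0.65, adjusted p = 0.0262) were called lower in limma. The MUC1 call was lost with the GC correction (0.0674), and CEACAM6 (0.210) and CLDN4 (0.147) were not called with no filter. The CEACAM6 call also ended with quantile normalization (0.0608) and without any 1 library but DON 3 (0.0506 to 0.0766). The CLDN4 call also ended without vehicle 1 (0.0868), vehicle 2 (0.0862), DON 2 (0.0872) or DON 3 (0.0692). All 7 endothelial markers stayed under 1 FPKM (summed 0.317 to 0.796 FPKM in vehicle and 0.0994 to 0.222 FPKM in DON). Of 9 fibroblast markers 8 stayed under 1 FPKM and LUM was lower in DON, at 141 to 171 FPKM in vehicle and 88.1 to 124 FPKM in DON (limma adjusted p = 0.0387). The LUM call ended with no filter (0.167) and in every fit that left out 1 library (0.0502 to 0.0905). Of 9 immune markers 7 stayed under 1 FPKM, PTPRC at or below 0.258 FPKM. The sums of 17.6 to 28.8 FPKM in vehicle and 26.8 to 40.6 FPKM in DON were nearly all CD68. Exons of another gene on the same strand cover 95.3% of the exonic bases of CD68, so its value is uncertain. Mesenchymal markers summed to 1033 to 1284 FPKM in vehicle and 1091 to 1391 FPKM in DON, nearly all VIM. Of 3 tested mesenchymal markers 1 rose, against 18.3% of all tested genes called higher. It was the transcription factor SNAI2, at 12.0 to 14.3 FPKM in vehicle and 23.4 to 34.3 FPKM in DON (limma adjusted p = 0.00174). These markers' part in the results below was not tested.

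The libraries also differed in a way the treatment does not explain. A second principal component with 19.7% of the variance had the same sign in vehicle 1, vehicle 2 and DON 1 and the opposite sign in vehicle 3, DON 2 and DON 3. This grouping is called the library split here, with side A for vehicle 1, vehicle 2 and DON 1 and side B for vehicle 3, DON 2 and DON 3. The weights of that component were uneven, largest for vehicle 3 (-0.624) and DON 1 (0.616) and smallest for vehicle 2 (0.144) and DON 2 (-0.111). The split moved with GC content, and several polarity genes with GC-rich transcripts, such as SCRIB, lay along it. Calls that turn on it are given with a term for the split, with a GC correction or as changes within each side. The split was read from these same libraries, so its term takes up spread that it was chosen for. A call gained with that term is no support and is given as a description. The change within side A sets DON 1 alone against vehicle 1 and vehicle 2. Within side B, DON 2 and DON 3 are set against vehicle 3 alone. Each such change rests on 1 library in 1 of the groups and is a description.

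Of the 38 genes, 28 reached 1 FPKM in at least 3 libraries and were tested. LIN7A, MPDZ, MPP7, AMOT, AMOTL1, VANGL2, CELSR2, FZD3, PTK7 and DCHS1 were not, and of these 10 only AMOTL1 reached 1 FPKM in any library. In DON 3 genes rose, 6 were called lower and 19 were not called, so 32.1% were called, against the 38.9% of all tested genes. The 3 that rose were INADL, LIN7B and ERBB2IP, against 18.3% of all tested genes called higher. FAT1, CELSR1, LLGL2, NF2 and WWC1 fell, against 20.6% called lower among all tested genes. PRICKLE1 was the other gene called lower, but it reached 1 FPKM only in vehicle libraries, so a lower DON level was built into its being tested and its call is no support. These shares are near or below the background and are no result about the polarity genes as a set. The groups did not overlap for 13 of the 28 genes, against 51.5% of all tested genes. In 4 of these every DON library lay above (24.9% of all tested genes) and in 9 below (26.5%). The 9 include PRICKLE1, whose lower DON level was built in.

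**Figure D1:**
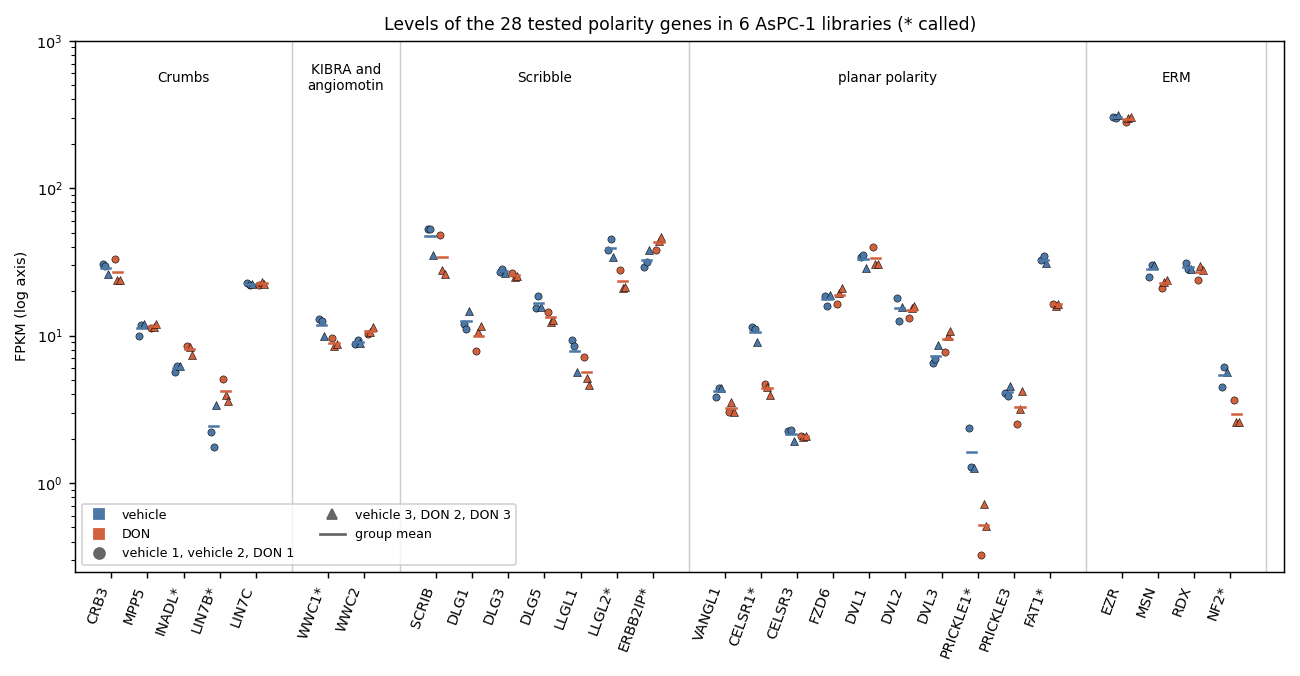
FPKM on a log axis of the 28 tested genes by group, with blue points for vehicle libraries, orange points for DON libraries, short bars for group means, circles for vehicle 1, vehicle 2 and DON 1, triangles for vehicle 3, DON 2 and DON 3, and asterisks at called genes. EZR stands at 283 to 312 FPKM above all others, and FAT1 and CELSR1 show DON points clear of the vehicle points.

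In the Crumbs group 2 of 5 tested genes rose and 0 fell, against 18.3% higher and 20.6% lower among all tested genes. The median log2 fold change was 0.04, and 0.13 with the GC correction, against -0.01 over all tested genes. CRB3, the transmembrane protein of the complex, stood at 30.5, 29.8 and 26.2 FPKM in vehicle 1, 2 and 3 and at 33.1, 23.9 and 23.7 FPKM in DON 1, 2 and 3. The highest and the 2 lowest values were all DON libraries, so the groups overlapped (log2 fold change -0.11, 95% interval -0.45 to 0.23, limma adjusted p = 0.575). MPP5, also called PALS1, is the scaffold that holds CRB3 and stood at 9.96 to 12.0 FPKM in vehicle and 11.2 to 11.9 FPKM in DON (0.04, interval -0.19 to 0.27, adjusted p = 0.757). Smaller changes of CRB3 or MPP5 than these intervals span cannot be read from these libraries.

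INADL, also called PATJ, is the multi-PDZ scaffold bound by MPP5. It stood at 5.62, 6.23 and 6.24 FPKM in vehicle and at 8.55, 8.39 and 7.37 FPKM in DON. Every DON library lay above every vehicle library, and the gene rose 1.34-fold (log2 fold change 0.37 ± 0.10 SE, limma adjusted p = 0.0225). The change was 0.47 within side A and 0.29 within side B. Leaving out vehicle 1 (0.0610), vehicle 2 (0.0552), DON 1 (0.0517) or DON 2 (0.0953) ended the call, adjusted p in parentheses. MPDZ, the paralog of INADL also known as MUPP1, stayed at or below 0.0438 FPKM.

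The LIN7 proteins are small PDZ adaptors at the outer end of the complex. LIN7B stood at 2.21, 1.751 and 3.35 FPKM in vehicle and at 5.10, 3.96 and 3.62 FPKM in DON. DON 1 was highest and vehicle 2 lowest, and the gap between the groups was narrow, from vehicle 3 to DON 3. LIN7B rose 1.73-fold (log2 fold change 0.62 ± 0.20 SE, limma adjusted p = 0.0423), but the change was 1.04 within side A and 0.14 within side B. Leaving out vehicle 1 (0.108), vehicle 2 (0.120), DON 1 (0.0979), DON 2 (0.0968) or DON 3 (0.0606) ended the call, as did testing with no filter on low values (0.193). With the GC correction its log2 fold change was 0.99. LIN7C, the main LIN7 gene here, varied little, at 21.9 to 22.6 FPKM in vehicle and 22.2 to 23.2 FPKM in DON (0.01, interval -0.16 to 0.19, adjusted p = 0.911). LIN7B made up 7.39% to 12.98% of summed LIN7 FPKM in vehicle and 14.0% to 18.7% in DON. LIN7A was low throughout, with 0.396 FPKM in vehicle 1 and at most 0.0491 FPKM elsewhere, and MPP7, a scaffold that joins LIN7 to DLG1, stayed at or below 0.344 FPKM. Neither was tested. Exons on the opposite strand cover 8.08% of the exonic bases of LIN7B.

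KIBRA, encoded by WWC1, and its paralog WWC2 are cytoplasmic adaptors that bind polarity proteins and the Hippo kinases. WWC1 stood at 12.96, 12.5 and 9.95 FPKM in vehicle and at 9.58, 8.55 and 8.70 FPKM in DON. Vehicle 3 lay only just above DON 1, and the gene fell 1.32-fold (log2 fold change -0.36 ± 0.12 SE, limma adjusted p = 0.0492). This call is at the threshold. Leaving out vehicle 1 (0.134), vehicle 2 (0.144), DON 1 (0.0501), DON 2 (0.154) or DON 3 (0.128) ended it. So did no filter (0.144), median-of-ratios scaling (0.0511), quantile normalization (0.0643), no trend (0.0520) and the GC correction (0.0625). WWC2 stood at 8.74, 9.37 and 8.85 FPKM in vehicle and at 10.3, 10.6 and 11.4 FPKM in DON. The groups did not overlap, yet WWC2 missed the threshold (0.24, interval 0.04 to 0.44, adjusted p = 0.0646, and 0.0478 with the split term). WWC1 made up 52.9% to 59.7% of the pair's summed FPKM in vehicle and 43.2% to 48.3% in DON. AMOT, an angiomotin that binds PATJ and YAP, stayed at or below 0.0232 FPKM, and its paralog AMOTL1 at 0.670 to 1.05 FPKM. Both were left untested. AMOTL2, an angiomotin from the list of paralogs, stood at 13.1 to 14.6 FPKM in vehicle and 9.75 to 11.3 FPKM in DON. It was called lower (-0.39, limma adjusted p = 0.0167). Leaving out vehicle 1 (0.0515), vehicle 2 (0.0563), DON 2 (0.0739) or DON 3 (0.0657) ended the AMOTL2 call. Exons of CLDN22 on the opposite strand cover 28.7% of the exonic bases of WWC2, and use of strand in counting is not given in the sources used here.

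In the Scribble group 1 of 7 tested genes rose and 1 fell, against 18.3% higher and 20.6% lower among all tested genes. Of the 7, 6 had a negative log2 fold change, as had 5871 of all 11471 tested genes, and the median was -0.31. The median was -0.15 with the GC correction. SCRIB, the large basolateral scaffold, stood at 52.7, 53.1 and 35.3 FPKM in vehicle and at 48.0, 27.9 and 26.1 FPKM in DON. The libraries of side A were high and those of side B low, and the groups overlapped. The log2 fold change was -0.48 (interval -1.10 to 0.13, limma adjusted p = 0.180). It was -0.14 within side A and -0.37 within side B. SCRIB passed as lower with the split term (-0.25, adjusted p = 0.0233), with a replicate block (0.0381) and without DON 1 (0.0213), whereas with the GC correction the change was -0.11 (adjusted p = 0.512).

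LLGL2 and LLGL1 are the mammalian forms of Lethal giant larvae, which atypical protein kinase C removes from the apical side. LLGL2 stood at 37.98, 45.5 and 34.0 FPKM in vehicle and at 27.8, 21.1 and 21.5 FPKM in DON. Every DON library lay below every vehicle library, and LLGL2 fell 1.67-fold (log2 fold change -0.72 ± 0.15 SE, limma adjusted p = 0.00899). The change was -0.56 within side A and -0.65 within side B. Its call held in all 6 fits that left out 1 library, and with the GC correction the change was -0.42 (adjusted p = 0.00723). The call was lost with no filter on low values (adjusted p = 0.0620). LLGL1 stood at 9.32, 8.45 and 5.68 FPKM in vehicle and at 7.16, 5.14 and 4.61 FPKM in DON. DON 1 exceeded vehicle 3, and LLGL1 was not called (-0.40, interval -0.89 to 0.09, adjusted p = 0.163). It passed with a replicate block (0.0286) or without vehicle 3 (0.0398). LLGL2 held 80.3% to 85.7% of the pair's summed FPKM in vehicle and 79.5% to 82.3% in DON, which overlap.

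ERBB2IP, also called ERBIN, is a basolateral protein of the same LAP family as SCRIB. It stood at 29.1, 31.4 and 37.8 FPKM in vehicle and at 38.2, 43.6 and 46.6 FPKM in DON. Vehicle 3 came close to DON 1, and the gene rose 1.31-fold (log2 fold change 0.38 ± 0.12 SE, limma adjusted p = 0.0490). The call ended without vehicle 1 (0.142), vehicle 2 (0.133), DON 2 (0.142) or DON 3 (0.145), and with no filter (0.169), quantile normalization (0.0614), no trend (0.0566) or the GC correction (0.0540). The DLG proteins are membrane-associated guanylate kinase scaffolds. DLG3 was the steadiest of them, at 26.7 to 28.2 FPKM in vehicle and 24.9 to 26.7 FPKM in DON (-0.09, adjusted p = 0.407). DLG1 stood at 12.0, 11.1 and 14.7 FPKM in vehicle and at 7.87, 10.5 and 11.6 FPKM in DON, with DON 3 above vehicle 2. DLG1 was not called (-0.31, adjusted p = 0.166), but passed as lower with the split term (-0.44, adjusted p = 0.00365) and with the GC correction (-0.41, adjusted p = 0.0357). DLG5 stood at 15.5, 18.5 and 15.6 FPKM in vehicle and at 14.5, 12.4 and 12.8 FPKM in DON, without overlap (-0.30, adjusted p = 0.0659, and 0.0495 with the split term or 0.0419 without DON 1).

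The planar polarity group held CELSR1 and FAT1, with the 2 largest log2 fold changes of all 28 tested genes at a pseudocount of 1. At a pseudocount of 0.1 PRICKLE1 (-1.48) came before CELSR1 (-1.24) and FAT1 (-0.997). Of 10 tested genes 0 were called higher and 3 lower, PRICKLE1 included, which is 30.0% called beside 38.9% of all tested genes. The median log2 fold change was -0.16, with PRICKLE1 counted, whose lower DON level was built into its being tested. That median was -0.02 with the GC correction or without vehicle 1, a fit that could not test PRICKLE1. The value of the median therefore rests on these choices and on PRICKLE1, and it is no support for a fall of the group. CELSR1, a seven-pass cadherin that bridges neighbouring cells, stood at 11.4, 11.01 and 9.10 FPKM in vehicle and at 4.72, 4.47 and 3.93 FPKM in DON. All DON libraries lay far below all vehicle libraries, and CELSR1 fell 2.40-fold (log2 fold change -1.09 ± 0.12 SE, limma adjusted p = 0.000619). Its change was -1.09 within side A and -0.96 within side B. Over all 15 alternatives CELSR1 stayed called, with log2 fold changes from -1.24 to -0.84 and adjusted p up to 0.00692.

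CELSR3 stood at 2.26, 2.30 and 1.94 FPKM in vehicle and at 2.09, 2.04 and 2.07 FPKM in DON. The DON values lay inside the vehicle range (-0.04, interval -0.29 to 0.21, adjusted p = 0.780). CELSR2 stood at 0.193 to 0.306 FPKM in vehicle and 0.146 to 0.167 FPKM in DON and was not tested. CELSR1 made up 80.9% to 82.1% of summed CELSR FPKM in vehicle and 63.7% to 67.8% in DON, while CELSR3 made up 16.3% to 17.2% in vehicle and 30.1% to 33.6% in DON. The log2 ratio of CELSR1 to CELSR3 changed by -1.05 on the FPKM + 1 scale. In a two-sided exact permutation test over the 6 libraries this gave p = 0.1, the smallest that 3 against 3 allows (adjusted p = 0.16 over 8 paralog or partner ratios).

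FAT1 is a giant protocadherin that acts in planar polarity and upstream of the Hippo pathway. It stood at 32.4, 34.4 and 30.8 FPKM in vehicle and at 16.5, 16.0 and 16.3 FPKM in DON. Within each group the values were close together and the groups stood far apart. FAT1 fell 2.004-fold (log2 fold change -0.96 ± 0.08 SE, limma adjusted p = 0.000244). The change was -0.98 within side A and -0.89 within side B, and across all 15 alternatives it ran from -0.997 to -0.92 with adjusted p up to 0.00301. FAT2, FAT3 and FAT4 were listed at the table's floor of 0.01 FPKM in every library. DCHS1, the protocadherin ligand of the FAT family, stayed at or below 0.103 FPKM and was not tested.

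PRICKLE1, a cytoplasmic partner of VANGL proteins, stood at 2.36, 1.27 and 1.26 FPKM in vehicle and at 0.325, 0.722 and 0.508 FPKM in DON. It passed the filter through its vehicle libraries alone, so a lower DON level was built into its being tested. All 3 DON libraries were lowest, with a 3.15-fold lower mean (log2 fold change -0.78, and -1.48 with a pseudocount of 0.1), given as a description. Tested with no filter, which does not choose by level, it was not called (limma adjusted p = 0.0985). Exons of an antisense gene cover 26.9% of its exonic bases. PRICKLE3 stood at 4.08, 3.89 and 4.52 FPKM in vehicle and at 2.52, 3.15 and 4.19 FPKM in DON, with DON 3 inside the vehicle range (-0.28, adjusted p = 0.190, and 0.0443 with the split term). VANGL1, the four-pass membrane protein that recruits PRICKLE, stood at 3.82, 4.44 and 4.43 FPKM in vehicle and at 3.03, 3.56 and 3.02 FPKM in DON. The groups did not overlap, and VANGL1 missed the threshold (-0.32, interval -0.57 to -0.06, adjusted p = 0.0574). It passed with no trend (0.0442), the GC correction (0.0284), the split term (0.0339) or without vehicle 1 (0.0488). VANGL2 was listed at 0.01 FPKM in every library.

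Receptors and signal adaptors of the Frizzled side gave 0 calls of 4 tested genes, beside 38.9% of all tested genes called. FZD6, the receptor of mammalian skin polarity, stood at 15.8 to 18.8 FPKM in vehicle and 16.4 to 21.0 FPKM in DON (0.09, interval -0.19 to 0.37, adjusted p = 0.581). Its partner receptor FZD3 stayed at or below 0.112 FPKM. PTK7, a pseudokinase coreceptor, was at 0.478, 0.355 and 0.191 FPKM in vehicle and at 0.0530, 0.0911 and 0.0882 FPKM in DON, below the filter. Of the Dishevelled adaptors DVL1 was the most abundant, at 34.2, 35.5 and 28.8 FPKM in vehicle and 39.9, 30.7 and 30.6 FPKM in DON (0.03, adjusted p = 0.861). Its values were higher on side A, with treatment held, and with the GC correction it passed as higher (0.42, adjusted p = 0.00340). DVL2 stood at 12.6 to 18.0 FPKM in vehicle and 13.2 to 15.9 FPKM in DON (-0.04, adjusted p = 0.853). DVL3 stood at 6.47, 6.89 and 8.57 FPKM in vehicle and at 7.78, 9.86 and 10.7 FPKM in DON (0.33, adjusted p = 0.119). DVL3 passed as higher with a replicate block (0.0343) or without DON 1 (0.0398).

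**Figure D2:**
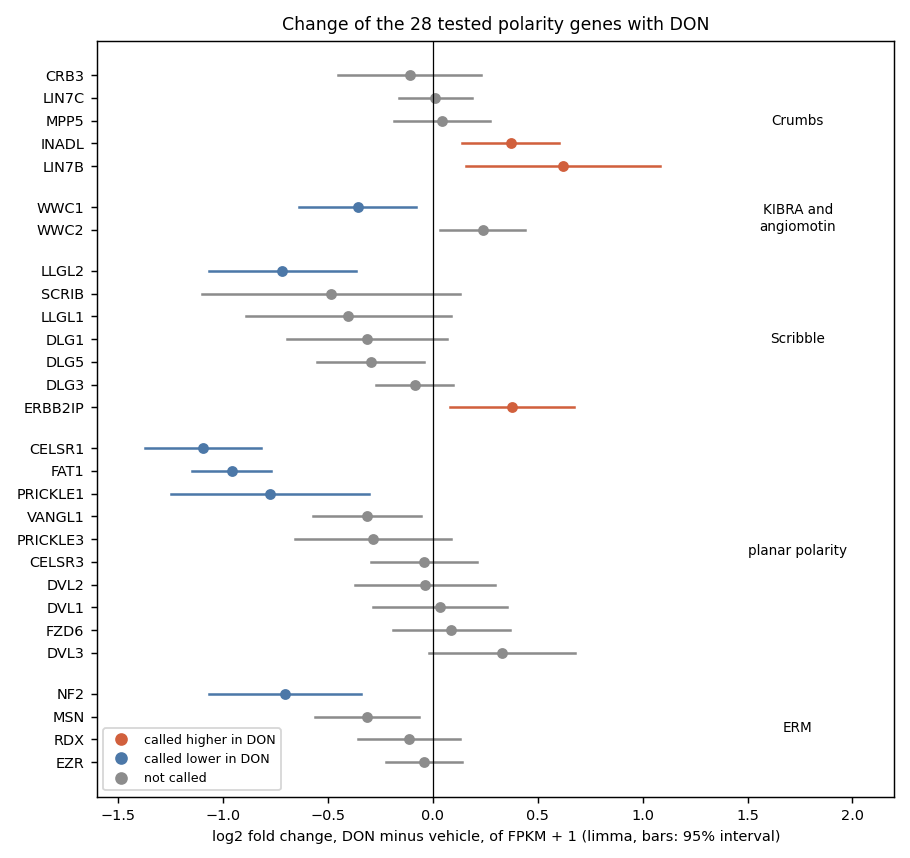
Log2 fold change of FPKM + 1, DON minus vehicle, of the 28 tested genes by group, with limma 95% intervals as bars, orange for genes called higher, blue for genes called lower and grey for genes not called. CELSR1 at -1.09 and FAT1 at -0.96 lie farthest from 0, and the 3 genes called higher lie between 0.37 and 0.62.

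Ezrin, radixin and moesin link membrane proteins to cortical actin, and merlin, the product of NF2, is a related protein that acts on Hippo signalling. In the ERM group 0 of 4 tested genes rose and 1 fell, against 18.3% higher and 20.6% lower among all tested genes. The median log2 fold change was -0.21, and -0.11 with a filter at 5 FPKM, which leaves NF2 untested and the other changes as they were. EZR was the most abundant of the 38 genes, at 303, 299 and 312 FPKM in vehicle and 283, 301 and 305 FPKM in DON. These ranges overlap (log2 fold change -0.04, interval -0.22 to 0.14, limma adjusted p = 0.695), so a change of EZR larger than this interval was not seen. EZR made up 83.7% to 84.5% of the summed FPKM of EZR, RDX and MSN in vehicle and 85.1% to 86.4% in DON, without overlap. The share of MSN was 6.94% to 8.39% in vehicle and 6.39% to 6.65% in DON, and the shares of RDX overlapped. RDX, encoding radixin, stood at 28.4 to 30.8 FPKM in vehicle and 23.7 to 29.6 FPKM in DON (-0.11, adjusted p = 0.408).

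MSN, encoding moesin, stood at 24.9, 30.0 and 30.1 FPKM in vehicle and at 21.0, 23.0 and 23.7 FPKM in DON. No DON library reached a vehicle library, and the gene missed the threshold (-0.31, interval -0.56 to -0.07, adjusted p = 0.0514). MSN passed as lower with a filter at 5 FPKM (0.0467), a replicate block (0.0209), the split term (0.00995) or without vehicle 1 (0.0283). NF2 stood at 4.51, 6.13 and 5.67 FPKM in vehicle and at 3.66, 2.61 and 2.61 FPKM in DON. The 3 DON libraries were the lowest, and NF2 fell 1.84-fold (log2 fold change -0.70 ± 0.15 SE, limma adjusted p = 0.0111). Within side A the change was -0.43, and within side B it was -0.89. The call held in all 6 fits that left out 1 library (adjusted p up to 0.0498) and was lost with no filter (0.0673). In RNA from whole cultures, fewer cells with a transcript and less of it per cell cannot be told apart.

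Unequal change of close relatives or partners was tested for 8 ratios. The log2 ratios changed by 0.61 for LIN7B to LIN7C, 0.33 for INADL to MPP5, -0.60 for WWC1 to WWC2 and -0.66 for NF2 to EZR, each without overlap of the groups and each at the smallest p of the exact permutation test, p = 0.1 (two-sided, adjusted p = 0.16). LLGL2 to LLGL1 (-0.31), ERBB2IP to SCRIB (0.86) and PRICKLE1 to PRICKLE3 (-0.49) gave p = 0.2 by the same exact permutation test (adjusted p = 0.2), and their groups overlapped. With 3 libraries a group no ratio could pass a threshold of 0.05, so the test decides nothing and the ratios are given as values.

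**Figure D3:**
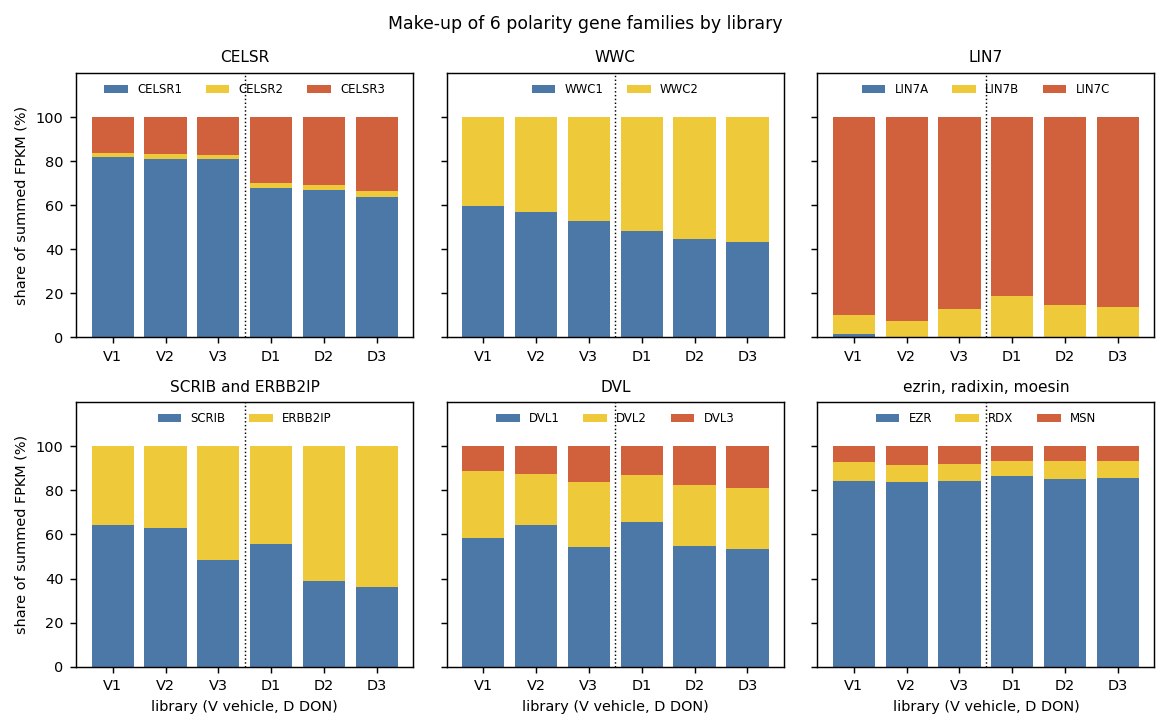
Share of each gene in the summed FPKM of its family or pair, in percent, for vehicle (V) and DON (D) libraries 1 to 3, with a dotted line between the groups. CELSR1 makes up 80.9% to 82.1% of its family in vehicle and 63.7% to 67.8% in DON. The share of EZR moves less, from 83.7% to 84.5% in vehicle to 85.1% to 86.4% in DON, also without overlap.

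The library split bore unevenly on these genes. With treatment held, side A minus side B on the log2 scale was 0.69 for SCRIB, 0.52 for LLGL1, 0.33 for CRB3, 0.32 for LLGL2 and 0.32 for DVL1, all with transcripts of 60.6% to 67.2% GC. It was -0.38 for DLG1 and -0.27 for ERBB2IP, with 38.7% and 35.9% GC, but also -0.34 for DVL3, with 56.8% GC. Across the 28 tested genes the Spearman correlation of this difference with GC content was 0.51, close to the 0.49 across 11272 tested genes with a GC value. These are correlations across genes that share the same 6 libraries, given as a description. Of 10 genes at 60% GC or above 7 were higher on side A, and of 9 genes under 45% GC 1 was, with these limits chosen after the values were seen. DVL2, PRICKLE3 and LIN7B were the GC-rich genes that went the other way. FAT1, at 46.3% GC, differed by 0.07 along the split, and CELSR1, at 61.4% GC, by 0.21.

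**Figure D4:**
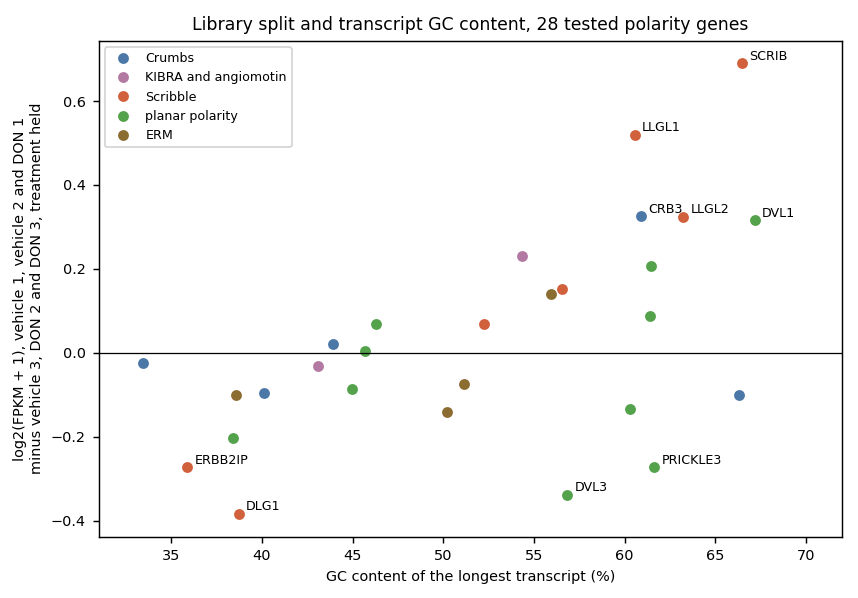
Difference of log2(FPKM + 1), side A (vehicle 1, vehicle 2, DON 1) minus side B (vehicle 3, DON 2, DON 3), with treatment held, against the GC content of the longest transcript in percent, for the 28 tested genes coloured by group. SCRIB, LLGL1, CRB3, LLGL2 and DVL1 lie above 0.3 at 60.6% GC or more, and DLG1 and ERBB2IP lie below 0 at the GC-poor end.

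Upstream sequences were searched for motifs of stress and Hippo factors. RefSeq promoters (GRCh38.p14) were at hand for 30 of the 38 genes, and the 250 bases before each start were searched on both strands. The entries for CELSR1, LLGL2, ERBB2IP, SCRIB, DLG5, FZD3, FZD6 and DCHS1 were missing. None of the 30 held the ATF4 composite motif TGATGNAA (1.53% of promoters of tested genes do), the endoplasmic reticulum stress element ERSE (0.127%) or the SREBP motif TCACNCCAC (0.938%). The TEAD motif GGAATG, bound by the partners of YAP, was in 3 of 30 (WWC2, VANGL1 and DLG3), against 9.95% of promoters of tested genes. None of these 3 genes was called. The window of FAT1, the most precisely measured fall, and of INADL, a rise, are shown beside them, with matches to GGAATG or its reverse complement in capitals and each sequence 5′ to 3′ on the gene's strand. FAT1 lies at chr4:186726697-186726946 on the minus strand, INADL at chr1:61742230-61742479, WWC2 at chr4:183099007-183099256, VANGL1 at chr1:115641720-115641969 and DLG3 at chrX:70444585-70444834, all but FAT1 on the plus strand.
FAT1: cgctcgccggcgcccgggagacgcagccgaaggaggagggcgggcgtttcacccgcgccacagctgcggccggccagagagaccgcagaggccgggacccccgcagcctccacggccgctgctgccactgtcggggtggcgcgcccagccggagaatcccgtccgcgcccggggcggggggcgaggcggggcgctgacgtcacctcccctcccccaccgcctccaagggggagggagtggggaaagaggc
INADL: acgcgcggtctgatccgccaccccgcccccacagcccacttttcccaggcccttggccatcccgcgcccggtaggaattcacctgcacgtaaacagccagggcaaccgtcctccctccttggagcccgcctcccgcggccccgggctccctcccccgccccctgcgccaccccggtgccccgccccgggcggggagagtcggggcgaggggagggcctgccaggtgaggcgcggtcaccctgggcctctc
WWC2: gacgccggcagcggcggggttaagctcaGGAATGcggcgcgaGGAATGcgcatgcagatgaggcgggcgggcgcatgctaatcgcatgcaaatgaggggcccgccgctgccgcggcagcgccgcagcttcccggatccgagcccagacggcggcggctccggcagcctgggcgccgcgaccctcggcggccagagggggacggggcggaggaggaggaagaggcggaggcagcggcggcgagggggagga
VANGL1: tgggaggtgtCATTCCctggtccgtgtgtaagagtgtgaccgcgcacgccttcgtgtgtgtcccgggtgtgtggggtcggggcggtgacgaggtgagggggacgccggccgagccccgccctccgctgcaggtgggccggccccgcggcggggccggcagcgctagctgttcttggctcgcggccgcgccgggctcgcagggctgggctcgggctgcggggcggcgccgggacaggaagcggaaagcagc
DLG3: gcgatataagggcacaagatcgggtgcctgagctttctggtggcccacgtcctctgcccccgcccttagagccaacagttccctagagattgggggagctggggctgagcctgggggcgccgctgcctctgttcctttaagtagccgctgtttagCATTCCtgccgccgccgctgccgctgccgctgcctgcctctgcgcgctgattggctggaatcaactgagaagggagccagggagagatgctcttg
The upstream window of WWC2 holds the motif in 2 places, and those of FAT1 and INADL hold none of the 4 motifs. A match describes letters in this window and says nothing of binding.

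Other genes of these pathways were taken from lists by role. Of 9 tested paralogs outside the 38 genes 1 rose and 4 fell, against 18.3% higher and 20.6% lower among all tested genes. DLG4, a DLG scaffold best known from synapses, rose from 3.11 to 3.62 FPKM in vehicle to 5.40 to 5.88 FPKM in DON (log2 fold change 0.59, limma adjusted p = 0.00376). LRRC1, a LAP protein related to SCRIB, fell from 40.3 to 46.2 FPKM in vehicle to 24.8 to 30.0 FPKM in DON (-0.61, adjusted p = 0.00405), and the scaffold MPP1 fell from 20.0 to 22.8 FPKM to 14.5 to 15.7 FPKM (-0.47, adjusted p = 0.00587). PRICKLE4 was called lower (-0.96, adjusted p = 0.00236), but exons of another protein-coding gene on the same strand cover 64.7% of its exonic bases, so its value is uncertain.

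Of 18 tested ligands, coreceptors and effectors of planar polarity 3 were called higher and 5 lower, against 18.3% higher and 20.6% lower among all tested genes. DAAM1, a formin that acts below Dishevelled, rose from 5.43 to 6.10 FPKM in vehicle to 10.1 to 11.5 FPKM in DON (log2 fold change 0.79, limma adjusted p = 0.00103). ROR1, a WNT5A receptor, fell from 3.20 to 3.73 FPKM to 0.958 to 1.45 FPKM (-1.001, adjusted p = 0.00127). GIPC1, a PDZ adaptor of endocytosis, fell from 81.7 to 105.7 FPKM to 43.8 to 62.6 FPKM (-0.90, adjusted p = 0.00517, and -0.57 with the GC correction). The ligand WNT11 was at 1.00 to 1.22 FPKM in vehicle and 0.0848 to 0.205 FPKM in DON (-0.88, and -2.41 with a pseudocount of 0.1). It is 1 of the 5 called lower, but it passed the filter through vehicle alone, and its values are given as a description. Of 3 other Frizzled receptors tested 0 rose and 1 fell, FZD1, from 2.60 to 3.83 FPKM to 1.54 to 1.68 FPKM (-0.73, adjusted p = 0.00703).

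Among 13 tested partners and kinases of the ERM proteins 2 rose and 5 fell, against 18.3% higher and 20.6% lower among all tested genes. PODXL, the anti-adhesive sialomucin that ezrin binds, fell from 23.3 to 26.7 FPKM in vehicle to 12.7 to 13.9 FPKM in DON (log2 fold change -0.85, limma adjusted p = 0.000558). SLC9A3R1, the scaffold EBP50 that joins ezrin to membrane proteins, fell from 75.6 to 90.4 FPKM to 46.7 to 58.9 FPKM (-0.67, adjusted p = 0.00472, and -0.42 with the GC correction). Its paralog SLC9A3R2 rose from 51.3 to 78.7 FPKM to 95.8 to 154 FPKM (0.80, adjusted p = 0.0277). Leaving out vehicle 1 (0.0576), vehicle 3 (0.0537) or DON 2 (0.0617) ended that call, as did no filter (0.157). The sodium-proton exchanger SLC9A3 was called lower (-0.69, adjusted p = 0.0112, 0.0677 with no filter, and -0.45 with the GC correction), with 34.5% of its exonic bases shared with another gene on the same strand. EZR itself, as given above, was not called.

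Of 16 tested partners of the Crumbs and Scribble complexes 2 rose and 4 fell, against 18.3% higher and 20.6% lower among all tested genes. EPB41L5, a FERM protein that binds Crumbs, fell from 8.70 to 11.6 FPKM in vehicle to 4.56 to 5.25 FPKM in DON (log2 fold change -0.91, limma adjusted p = 0.00162). CLDN1, a tight junction claudin, fell from 49.5 to 70.3 FPKM to 28.1 to 37.9 FPKM (-0.78, adjusted p = 0.00886, and 0.0655 with no filter). STRN, a scaffold of a phosphatase and kinase complex, rose from 5.61 to 7.61 FPKM to 9.46 to 11.5 FPKM (0.60, adjusted p = 0.0107, and 0.0544 with no filter). TRIP6, a LIM protein that binds SCRIB, rose from 31.9 to 41.1 FPKM to 45.1 to 66.8 FPKM (0.52, adjusted p = 0.0413, and 0.82 with the GC correction). Its call ended with no filter (0.183) and without vehicle 1 (0.0623), vehicle 2 (0.0827), vehicle 3 (0.0947), DON 1 (0.0678) or DON 2 (0.0950).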

How the data were processed

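The authors deposited FPKM values in 1 table with a column per library and a row per gene symbol. Per the labels' protocols, poly(A) RNA went into strand-directed libraries read from a single end over 75 bp. STAR and hg19 are named in the submitters' processing notes. How FPKM, annotation, strand and scaling were handled is not given in the sources used here. Columns named control were taken as vehicle by their number. The table holds no read totals, so depth can be compared only through the steps between low values, which put the other libraries at 1.25 to 1.71 times vehicle 1, and intervals from counting cannot be made.

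Rows with a failure mark (41 of 26228) were left out. Tested genes had 1 FPKM or more in 3 or more of the 6 libraries. Log2(FPKM + 1) was fitted in limma 3.58.1 (R 4.3.3) with an intensity trend, two-sided, with Benjamini-Hochberg adjustment over all tested genes. The procedure was first run on simulated data with independent noise for each gene. Those data held no library split, so the run says nothing of how the fit deals with it. Tables and plots used Python 3.11.15, pandas 2.3.3, numpy 2.4.6, scipy 1.17.1 and matplotlib 3.10.9. GC content and exon overlap came from GENCODE release 29 (GRCh38). The deposited values were made on hg19 with an annotation not given, in which the overlaps may differ. The GC correction subtracts from each library a smooth curve of its deviation from the mean of all libraries against GC content.

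Alternatives changed the pseudocount (0.1), the filter (none, or 5 FPKM), the scaling (median of ratios, quantiles), the trend (none) or the model (replicate block, GC correction, split term), or left out each library in turn. The named genes are all members and, per further list, up to 4 called genes by size of change, with the paralog AMOTL2 added beside the angiomotins. Members and lists were chosen with earlier results of these data known.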

Additional observations from a re-analysis of the deposited data

How the results depend on the processing

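Of 411 pairs of a tested polarity gene and an alternative, 356 kept their side of the threshold, 33 lost a call and 22 gained one, and no called gene changed direction. Of 9 called genes, CELSR1 and FAT1 (2) were called in every alternative that could test them, and 4 in every fit that left out 1 library. With no filter on low values 1 gene was called higher and 2 lower, beside 1391 and 1551 of all 26187 genes. The planar polarity median was then -0.057. With the split term, which was taken from these same libraries, 4 genes were called higher and 12 lower, beside 2884 and 3147 of all 11471 tested genes. A filter at 5 FPKM, which tests fewer genes, gave medians of -0.00184 for planar polarity and -0.11 for ERM genes. With the GC correction the medians were 0.13 for the Crumbs group, -0.15 for the Scribble group and -0.0196 for planar polarity; the cause was not tested. Leaving out 1 library at a time gave 0 to 3 genes called higher, with 0 without vehicle 1, vehicle 2 or DON 2 and 1 without DON 3, and 4 to 6 called lower. Over all tested genes the same fits gave 1185 to 2104 called higher and 1504 to 2532 called lower. The planar polarity median then ran from -0.185 to -0.0204, the latter without vehicle 1. Without a vehicle library PRICKLE1 could not be tested. With the replicate block 4 genes were called higher and 9 lower, and over all tested genes 2551 and 2863, against 2096 and 2363. Deviations of same-numbered libraries correlated at 0.254, -0.184 and 0.502 for replicates 1, 2 and 3. Of 3 vehicle libraries, 2 correlated best with the DON library of their own number. Vehicle 2 and DON 2 lie on opposite sides of the library split, so these values cannot decide whether the numbers pair the samples. Without DON 2 all calls fell to 1185 higher and 1504 lower. Depth is unknown, and the size of a change is known only to within its interval.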
